A study of Mus musculus with 10 samples.

Results

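Hmgcs1, Idi1, Fdps, Fdft1, Sqle, Lss, Sc5d and Dhcr7 encode 8 enzymes of cholesterol synthesis, and they were chosen by name, as members of that pathway. Each symbol had 1 row in the mRNA tables, so all 8 were found among 40904 gene symbols. The mRNA came from primary cortical neuron cultures of E14 embryos of the ICR mouse strain at DIV11 (day 11 in vitro). The control culture had received AAV-Control, an adeno-associated virus, and the other had received AAV-Gata1, which carries Gata1, a transcription factor of the blood lineage. No other agent is named in the labels for either culture. The serotype, the promoter that drives Gata1, the virus dose and the number of embryos per culture are not stated in the sources used here.

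Each condition was represented by 1 mRNA library. No test between conditions was possible, no difference below has a replicate check, and virus, culture and library cannot be told apart. Levels are given in FPKM, in which fragments are scaled to the length of the transcript and to the size of the library, so that genes of different length can be compared. Differences are log2 ratios of Gata1 over control after 1 FPKM was added to each value, for the 13740 genes whose mean reached 1 FPKM. Adding 1 FPKM pulls the ratios of low genes towards 0. The tables summed to 476398 FPKM (control) and 476848 FPKM (Gata1), and over all genes compared the median log2 ratio was −0.013. Gata1 was listed at 0 FPKM with AAV-Control and at 2.07 FPKM with AAV-Gata1, which matches the labels.

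Cholesterol is built from acetyl-CoA. The early enzymes make isoprenoid units through mevalonate, the middle enzymes join them into squalene and close its rings to lanosterol, and the late enzymes turn lanosterol into cholesterol. When membrane sterol is low, SCAP carries the transcription factor SREBP2 to the Golgi, where it is cut free to switch on most genes of the pathway, usually beside the factors NF-Y and Sp1. The blood-brain barrier keeps out lipoproteins, so the brain makes its own cholesterol, in astrocytes and oligodendrocytes above all, and astrocytes pass it to neurons on ApoE particles.

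Promoter sequences are shown here because SREBP2 reads this pathway at its promoters. RefSeq windows (GRCm38.p6) were at hand for 5 of the 8 genes, Hmgcs1, Idi1, Lss, Sc5d and Dhcr7, and those of Fdps, Fdft1 and Sqle were not used here. The 5 genes have 7 annotated starts in the table, 3 of them in Dhcr7. The 250 bases before each start were searched on both strands for the core of the sterol regulatory element (TCACNCCAC), the E-box CACGTG, the CCAAT box read by NF-Y (CCAAT), the GC box read by Sp1 (GGGCGG) and the GATA motif (AGATAA or AGATAG or TGATAA or TGATAG). Capitals mark these matches, none of which overlapped another. The windows printed are those of Hmgcs1, which holds the sterol element core, of Idi1, which was lower in the Gata1 library, and of Sc5d, which was furthest apart between the libraries. They lie at chr13:119690101-119690350 (plus strand), chr13:8885356-8885605 (plus strand) and chr9:42264301-42264550 (minus strand). For Dhcr7 the stretch of 60 bases around its GATA motif is given, at chr7:143823149-143823208 (plus strand).
Hmgcs1: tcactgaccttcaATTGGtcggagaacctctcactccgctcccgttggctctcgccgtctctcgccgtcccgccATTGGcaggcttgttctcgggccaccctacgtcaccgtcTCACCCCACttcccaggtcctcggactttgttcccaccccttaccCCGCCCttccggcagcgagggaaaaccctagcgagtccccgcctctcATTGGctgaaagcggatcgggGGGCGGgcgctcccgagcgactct
Idi1: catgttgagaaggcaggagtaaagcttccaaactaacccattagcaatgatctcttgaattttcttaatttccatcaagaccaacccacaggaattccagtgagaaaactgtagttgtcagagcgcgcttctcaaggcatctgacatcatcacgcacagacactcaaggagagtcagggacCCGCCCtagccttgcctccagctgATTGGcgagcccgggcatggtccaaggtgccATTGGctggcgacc
Sc5d: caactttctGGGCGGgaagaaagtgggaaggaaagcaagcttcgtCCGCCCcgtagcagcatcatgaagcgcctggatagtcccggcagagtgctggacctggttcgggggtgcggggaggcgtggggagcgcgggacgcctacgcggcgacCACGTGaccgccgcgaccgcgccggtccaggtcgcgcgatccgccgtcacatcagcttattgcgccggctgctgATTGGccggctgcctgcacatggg
Dhcr7: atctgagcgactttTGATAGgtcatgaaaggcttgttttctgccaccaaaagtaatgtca

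The CCAAT box was found in 5 of the 7 windows and the GC box in 6 of the 7. They were found in 33.8% and 32.7% of the 32851 windows of this length that were searched, with 1 chromosome left out. Below, all windows means these. Hmgcs1 had the sterol element core 137 to 129 bases before its start, as TCACCCCAC. This was 1 of the 7 windows, and 1.05% of all windows hold this core. It also had 3 CCAAT boxes. An E-box was found in 2 of the 7 windows, 98 to 93 bases before the start of Sc5d and in 1 window of Dhcr7, against 6.02% of all windows. The GATA motif was found in 1 of the 7 windows, against 26.5% of all windows. This was 1 of the 3 Dhcr7 windows, printed in part above, with the motif 236 to 231 bases before its annotated start. No CCAAT box or GC box was found in that window. The letters of the motif also lie across another annotated start of Dhcr7. All these matches describe letters, and their relation to the mRNA values was not tested. The search covered the 7 windows alike, but those of Idi1 and Sc5d were printed because of their mRNA differences. The histone mark profiles of the series were not analysed here.

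The differences between the libraries were small for all 8 enzymes. In the Gata1 library 5 of the 8 were higher (Hmgcs1, Fdft1, Sqle, Lss and Sc5d) and 3 lower (Idi1, Fdps and Dhcr7), where 45.3% of all genes compared were higher and 54.7% lower. Their log2 ratios ran from −0.14 (Fdps) to 0.22 (Sc5d), with a median of 0.056. No member was 1.2-fold apart or 2-fold apart, sizes that 7.27% and 0.517% of all genes reached. At 1.1-fold, Sc5d was past the limit on the higher side and Fdps on the lower side, against 10.7% and 13.7% of all genes. That makes 2 of 8 members in either direction beside 24.4% of all genes, so the count sits at the background. Fdps and Idi1 lie at this limit: with another pseudocount or with centring on the median of all genes, the number of members past it on the lower side was 0 or 2. Of the 8, Sqle and Dhcr7 lay within the middle 50% of all genes compared (−0.084 to 0.061), and 2 were below and 4 above it. Summed over the 8 genes the level was 234 FPKM with AAV-Control and 240 FPKM with AAV-Gata1, 2.36% higher. Without Hmgcs1, which made up the largest portion, the sums were 138 and 139 FPKM. In bulk RNA, fewer cells of a type and less RNA per cell cannot be told apart.

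**Figure D1:**
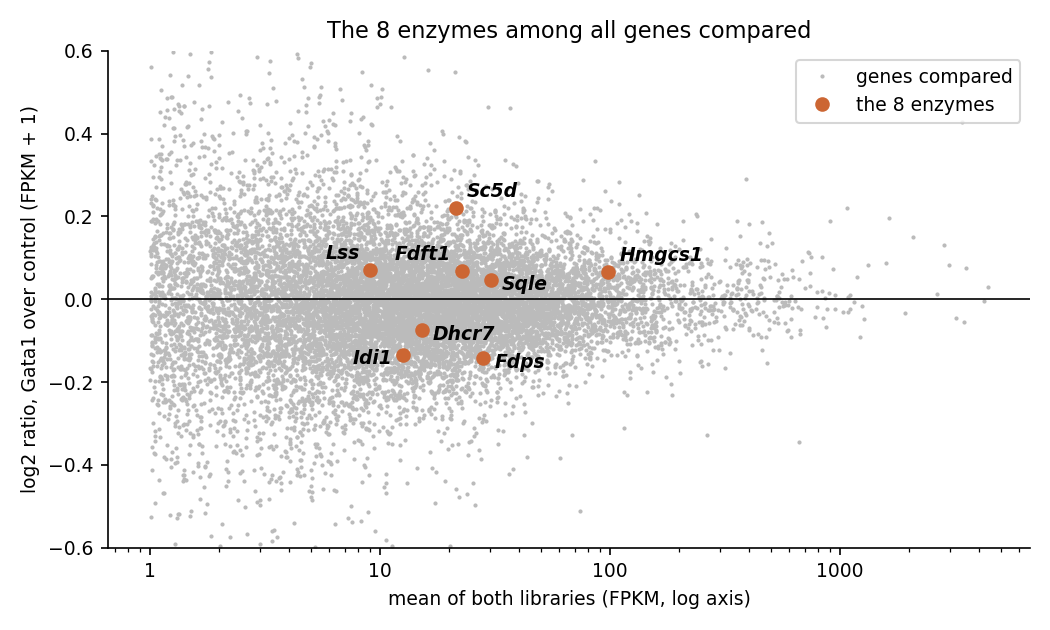
Log2 ratio of Gata1 over control against the mean level of both libraries (FPKM, log axis), 1 point per gene compared, with the 8 enzymes in orange. The enzymes lie within the cloud of all genes, Sc5d highest at 0.22 and Fdps lowest at −0.14, and 166 genes beyond 0.6 in either direction are outside the plotted range.

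Hmgcs1, the cytosolic synthase that joins acetyl-CoA and acetoacetyl-CoA to HMG-CoA, stood at 96.0 FPKM with AAV-Control and 100 FPKM with AAV-Gata1 (4.68% higher, log2 ratio 0.065). It was by far the most abundant member. Only 837 genes of the control table and 793 of the Gata1 table had a higher value. Its level was 3.24 times that of Sqle, the next member, in the control and 3.28 times in the Gata1 library.

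Idi1 and Fdps act in a row and were both lower in the Gata1 library. Idi1, the isomerase that readies isopentenyl diphosphate for chain building, stood at 13.2 FPKM with AAV-Control and 11.96 FPKM with AAV-Gata1 (9.54% lower, log2 ratio −0.13). Its paralog Idi2 was near 0, at 0.0505 and 0.0176 FPKM. Fdps, which makes farnesyl diphosphate and is the target of nitrogen-containing bisphosphonate drugs, stood at 29.6 and 26.7 FPKM (9.70% lower, log2 ratio −0.14). A difference from 0 as large as that of Fdps was seen in 23.2% of all genes compared, and one as large as that of Idi1 in 25.4%.

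The enzymes from squalene to lanosterol were all slightly higher in the Gata1 library. Fdft1, squalene synthase, takes farnesyl diphosphate into the sterol branch. It stood at 22.0 FPKM with AAV-Control and 23.2 FPKM with AAV-Gata1 (5.11% higher, log2 ratio 0.069). In RefSeq it overlaps Ctsb, the cathepsin B gene, which stood at 306 and 334 FPKM. Whether fragments were assigned by strand is not stated in the sources used here, and what Ctsb adds to the Fdft1 value was not tested.

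Sqle, the oxygenase that makes the epoxide of squalene and a control point of the pathway, stood at 29.7 and 30.7 FPKM (3.35% higher, log2 ratio 0.046), the smallest difference of the 8. Lss, the cyclase that forms lanosterol, stood at 8.81 and 9.31 FPKM (5.61% higher, log2 ratio 0.071). It was the least abundant member, with Hmgcs1 10.9 times as high in the control and 10.8 times in the Gata1 library. Differences from 0 at least as large as those of these 3 genes were seen in 51.2% to 66.4% of all genes compared.

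Sc5d and Dhcr7, consecutive steps at the end of the pathway, differed in opposite directions. Sc5d, the desaturase that makes 7-dehydrocholesterol, stood at 19.6 FPKM with AAV-Control and 23.0 FPKM with AAV-Gata1 (17.4% higher, log2 ratio 0.22). Of all genes compared, 636 had a higher log2 ratio, and 10.6% were at least as far from 0. Dhcr7, the reductase that turns 7-dehydrocholesterol into cholesterol and is mutated in Smith-Lemli-Opitz syndrome, stood at 15.6 and 14.7 FPKM (5.41% lower, log2 ratio −0.075). The level of Sc5d was therefore 1.26 times that of Dhcr7 in the control and 1.56 times in the Gata1 library.

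**Figure D2:**
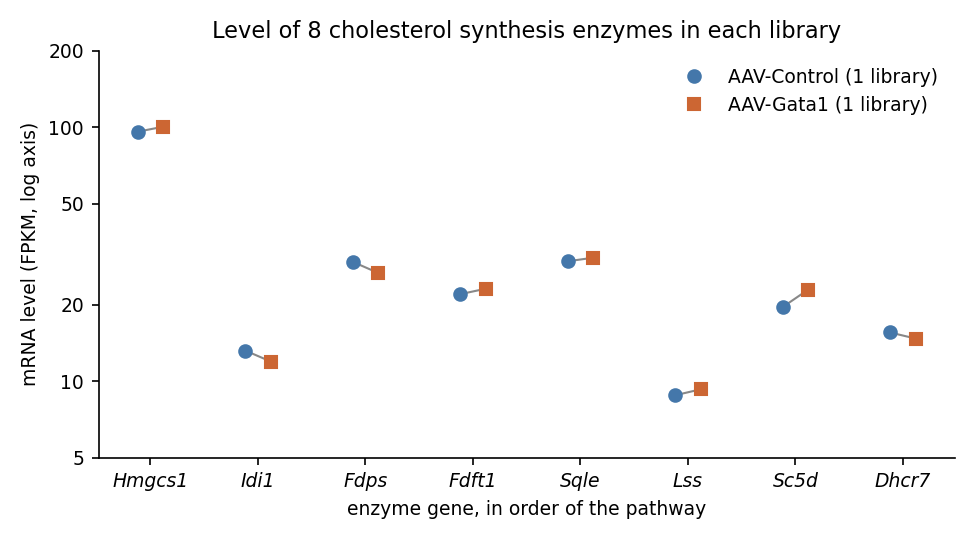
Level of the 8 enzymes (FPKM, log axis) in the AAV-Control library (circles) and the AAV-Gata1 library (squares), 1 library each, so no error is shown. Hmgcs1 lies near 100 FPKM and Lss near 9 FPKM in both, and Sc5d has the steepest line, from 19.6 to 23.0 FPKM.

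The order of the levels was the same in both libraries: Hmgcs1, Sqle, Fdps, Fdft1, Sc5d, Dhcr7, Idi1 and Lss, from high to low. With 1 library a condition the spread within a condition is unknown, so the gaps between neighbours can only be set beside the differences between the libraries. Sqle and Fdps were 0.116 FPKM apart with AAV-Control and 3.98 FPKM apart in the Gata1 library. Fdft1 and Sc5d were 2.44 FPKM apart with AAV-Control and 0.167 FPKM apart in the Gata1 library, and theirs was the 1 pair of neighbours whose ranges over both libraries overlapped.

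Of the other enzymes of the pathway, 10 are described here. All 10 reached a mean of 1 FPKM. In the Gata1 library 6 were higher and 4 lower, beside 45.3% and 54.7% of all genes, at a median log2 ratio of 0.026. None was 1.1-fold apart, a size that 24.4% of all genes reached. In the mevalonate stretch, Acat2, which makes acetoacetyl-CoA, stood at 23.2 FPKM with AAV-Control and 23.4 FPKM with AAV-Gata1. The kinase genes Mvk (9.96 and 10.6 FPKM) and Pmvk (28.5 and 30.0 FPKM) were also higher in the Gata1 library. All 3 thus lay on the same side as Hmgcs1, and Idi1 and Fdps, later steps, on the other.

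After lanosterol the other enzymes were mixed. Cyp51, the lanosterol demethylase, stood at 16.7 and 17.2 FPKM, and Msmo1 (24.3 and 25.2 FPKM) and Nsdhl (15.5 and 15.9 FPKM), which remove methyl groups from the ring, were likewise slightly higher. The sterol reductase genes Tm7sf2 (14.8 and 13.4 FPKM) and Lbr (6.27 and 5.96 FPKM) were lower. So was Hsd17b7, a ketoreductase (7.41 and 6.78 FPKM). Ebp, the isomerase that feeds Sc5d, stood at 5.09 and 5.08 FPKM. Sc5d had the highest log2 ratio of the 18 enzymes described.

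**Figure D3:**
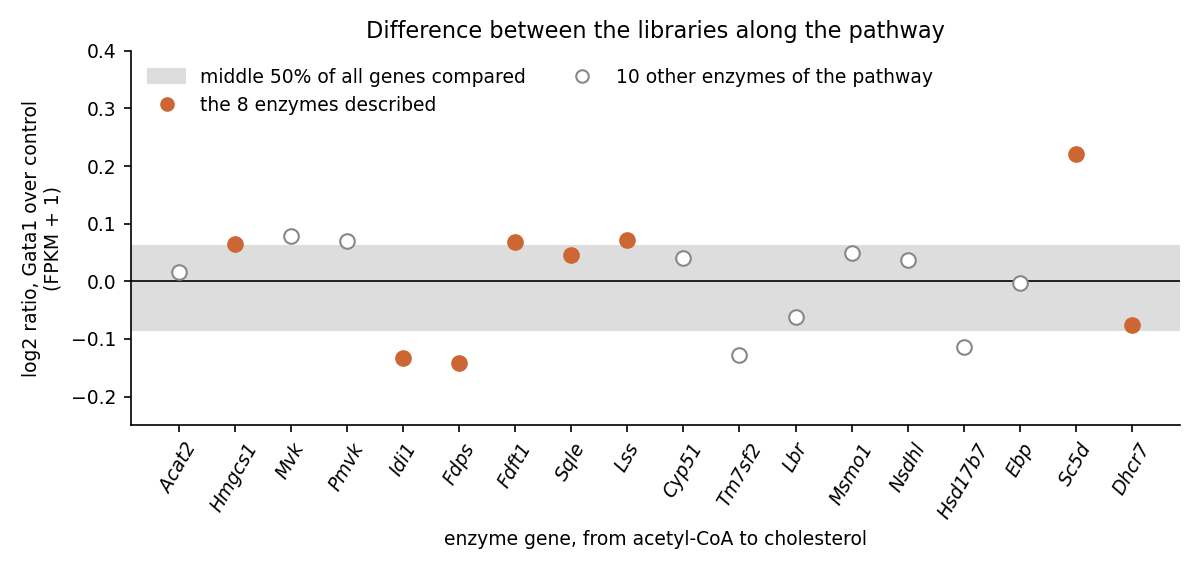
Log2 ratio of Gata1 over control for 18 enzymes of cholesterol synthesis, placed from acetyl-CoA to cholesterol, with the 8 enzymes described filled and the 10 others open. The grey band holds the middle 50% of all genes compared (−0.084 to 0.061); Idi1, Fdps, Tm7sf2 and Hsd17b7 lie below it, Sc5d stands apart at 0.22, and the next highest is Mvk at 0.078.

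Genes that sense sterol and control SREBP had 10 of 11 members lower, with a median log2 ratio of −0.050, beside 54.7% lower among all genes. Srebf2, which encodes SREBP2, stood at 38.5 FPKM with AAV-Control and 37.2 FPKM with AAV-Gata1. Scap stood at 40.8 and 40.1 FPKM, and Insig1, which holds SCAP in the endoplasmic reticulum and is itself an SREBP target, at 11.4 and 11.2 FPKM. The 4 largest differences were those of Insig2 (19.0 and 17.0 FPKM), Srebf1 (52.4 and 47.3 FPKM), Rnf139 (18.4 and 17.2 FPKM) and Rnf145 (36.7 and 34.4 FPKM), all lower. Most of the 8 enzymes were higher while most of these regulators were lower, and all differences in both groups were under 1.2-fold. The list joins genes that drive the pathway, such as Srebf2 and Scap, with genes that hold it back, such as Insig1. Its direction therefore gives no direction of control over the enzymes.

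Genes of lipoprotein uptake and cholesterol transport inside the cell were higher in 7 of the 11 cases compared (median 0.040), beside 45.3% of all genes. Of the 11, 4 were 1.1-fold higher, beside 10.7% of all genes. With a pseudocount of 5 this count was 1. Among the 9 genes with means of 5 FPKM or more, Stard4 and Mylip being below that, 2 were 1.1-fold higher and the median was 0.0027. The 4 genes were Stard4, a sterol carrier (3.57 and 4.49 FPKM), Mylip, a ubiquitin ligase gene (4.31 and 5.06 FPKM), Tmem97 (9.37 and 10.6 FPKM) and Stard3 (15.3 and 17.1 FPKM). The list joins genes of different roles, Mylip among them, so its counts give no direction of uptake.

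Genes of efflux, oxysterols and esterification were divided evenly, 5 higher and 5 lower (median −0.0032). Abcg4, a neural sterol exporter, stood at 13.3 and 10.7 FPKM. Cyp46a1, the neuronal hydroxylase through which the brain disposes of cholesterol, stood at 44.3 and 38.4 FPKM. Abcg1 (9.94 and 10.7 FPKM) and Nceh1 (15.5 and 16.2 FPKM) were on the other side, and Abca1 stood at 99.9 and 104 FPKM. Apoe had the highest value of both tables, 4345 and 4432 FPKM.

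Fatty acid synthesis genes, mostly targets of SREBP1, were lower in 7 of 11 cases (median −0.042), beside 54.7% of all genes. None of the 11 was 1.1-fold apart, a size that 24.4% of all genes reached. Fasn stood at 54.0 and 49.5 FPKM, Acss2 at 12.1 and 11.1 FPKM and Fads2 at 467 and 439 FPKM. Me1 was higher, at 43.5 and 47.9 FPKM. Enzymes that draw on farnesyl diphosphate for other products were 6 higher and 6 lower (median 0.0098). Coq2, of ubiquinone synthesis, stood at 27.8 and 25.02 FPKM. Ggps1, which lengthens farnesyl to geranylgeranyl diphosphate, stood at 14.6 and 16.0 FPKM, Nus1, of dolichol synthesis, at 25.6 and 27.9 FPKM, and Rabggtb at 28.9 and 31.2 FPKM.

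**Figure D4:**
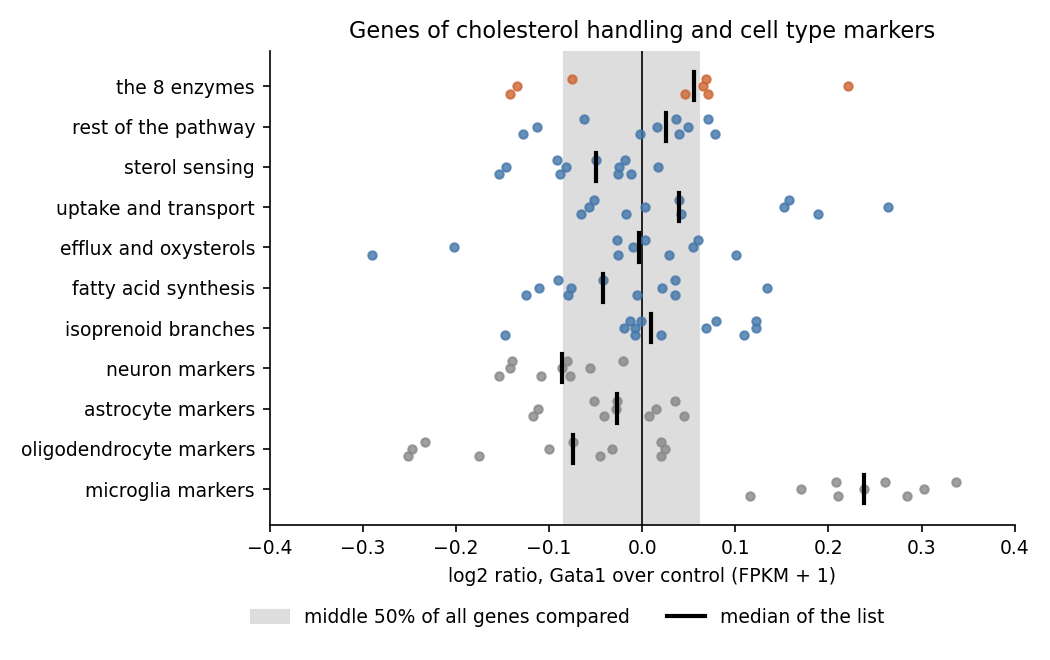
Log2 ratio of Gata1 over control for each gene compared (points) in lists of cholesterol handling and of cell type markers, with each list's median (black bar) and the middle 50% of all genes compared (grey band). The medians of the cholesterol lists lie between −0.050 and 0.056, and that of the microglia markers at 0.24.

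Markers of several cell types were measured in these cultures. Beside the neuron markers that the label calls for, those of astrocytes stood at high levels, with Gfap at 887 FPKM with AAV-Control and 897 FPKM with AAV-Gata1. Summed, the 10 astrocyte markers stood at 2515 and 2507 FPKM, with 4 higher and 6 lower. The 9 neuron markers measured were all lower (773 and 738 FPKM summed), and of the 11 oligodendrocyte lineage markers compared 8 were lower (12 markers summed, 318 and 303 FPKM). All 9 microglia markers compared were higher (10 markers summed, 447 and 526 FPKM, 17.6% higher), and no marker of these lists was at 0 in both libraries. Below the minimum mean, the microglia marker P2ry12 was lower (0.178 and 0.117 FPKM) and the oligodendrocyte marker Mog higher (0.762 and 0.798 FPKM). Among all genes compared 45.3% were higher and 54.7% lower. Of the pericyte and fibroblast markers 3 of 8 could be compared and were lower (8 summed, 99.96 and 83.5 FPKM). Acta2 made up most of that sum, at 76.4 and 60.7 FPKM. Below the minimum mean, Rgs5, Col1a1, Col1a2 and Col3a1 were higher and Lum lower. The list's median log2 ratio was −0.13, but 0.016 with no minimum mean. Of the 6 endothelial markers only Kdr could be compared, and it was lower (2.44 and 2.20 FPKM). Below the minimum mean, Cldn5, Pecam1, Tek and Flt1 were higher and Cdh5 lower. With no minimum mean the median of the endothelial list was 0.053. The part that these differences in markers have in the values of the 8 enzymes was not tested.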

How the data were processed

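The deposited mRNA values are FPKM, per the file headers. The submitters' processing notes name Cufflinks 2.1.1, Cuffdiff 2.1.1 and TopHat2 2.1.1 among other tools, and the builds mm9 and mm10, without roles. The libraries were stranded and paired-end, per the labels' protocols. Rows without a symbol (6 of 40993, at most 0.0122% of the summed FPKM) were left out, and the highest-mean row was kept per symbol. Depth is unknown: of 1274 genes above 0 and below 0.1 FPKM in both libraries, at most 43 had log2 ratios within 0.02 of each other, and no steps of whole fragments were recovered.

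Log2((Gata1 + 1)/(control + 1)) was computed with Python 3.11.15, pandas 2.3.3 and numpy 2.4.6, and the counting was tested on simulated data. The members and lists were chosen with earlier results of these data known. Named were all members, all measured genes of the rest of the pathway, of each other list the 4 genes furthest apart, and a few genes fixed by name, Srebf2 among them; some listed genes are not reported here, and most markers are given as sums only. Gfap, Ctsb and Idi2 were added after their values were seen. Since 2 libraries give no measure of likeness, no genes were named for a similar pattern. Alternatives changed the pseudocount, the minimum mean, the handling of repeated symbols and the scaling. Small RNA tables were not used here.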

Additional observations from a re-analysis of the deposited data

How the results depend on the processing

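Under 7 alternatives (a pseudocount of 0.1 or 5, a minimum mean of 5 FPKM or none, summed rows, centring on the median of all genes, and a common total) none of the 56 values of single members moved by 0.05 or more on the log2 scale, and 0 turned sign. Much of this outcome was fixed in advance. Each member had 1 row and a mean above 5 FPKM, so summed rows and either minimum could not change its value. A pseudocount cannot turn a sign. The median used for centring was smaller in size than every member's ratio, and the common total shifted the values less than centring did. The lack of turned signs is therefore no test of the directions. The median of the 8 ranged from 0.046 to 0.068, Sc5d from 0.19 to 0.23, Fdps from −0.15 to −0.12 and Idi1 from −0.14 to −0.10. The count of members 1.1-fold lower is not firm, since Fdps and Idi1 lie at that limit: it was 2 with a pseudocount of 0.1, 0 with a pseudocount of 5 and 0 with centring. Of 108 other listed genes, 8 turned sign under at least 1 alternative.

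The background moved with the treatment of low genes. Genes 2-fold higher and lower numbered 60 and 70 with a pseudocount of 0.1, 17 and 23 with 5, and 18 and 23 at a minimum mean of 5 FPKM. Genes 1.2-fold higher and lower numbered 144 and 161 with a pseudocount of 5, 193 and 240 at the minimum of 5 FPKM, and 850 and 1032 with no minimum, and 679 were higher with a pseudocount of 0.1. Genes 1.1-fold higher and lower numbered 745 and 946, 840 and 1136, and 2442 and 3117 under those 3 settings. These counts are not shares of 1 total, so a larger count need not be a larger share. With either pseudocount 13740 genes were compared, and fewer at the minimum of 5 FPKM. With no minimum all 40904 symbols were compared, 19713 of them at 0 in both libraries. No paired analysis was possible because each condition had 1 mRNA library, and no library could be left out for the same reason. The unknown depth leaves the counting error of every value unknown.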
